A study of Homo sapiens with 12 samples.

Results

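The B4GALT family comprises 7 human galactosyltransferase genes, B4GALT1 to B4GALT7. Its members were taken by name from a table of 57773 genes measured by RNA sequencing in A498, an established human kidney carcinoma cell line. All 7 were found and all 7 passed the filter on low values, which kept 18648 genes. The family was selected on 1 measured result, the lower B4GALT1 values in cells with the ELOVL2 siRNA than in cells with the control siRNA. Values from that comparison are therefore given as a description, with no test.

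Cells of 4 groups were compared, with 3 biological replicates each. One group received a control siRNA, one an siRNA against ELOVL2 (siELOVL2), one an siRNA against ELOVL5 (siELOVL5) and one siRNAs against both genes (double). Such duplex RNAs direct the cell to degrade transcripts they pair with. ELOVL2 and ELOVL5 are elongases, enzymes that lengthen polyunsaturated fatty acids. Whether 1 or several siRNA sequences were used per gene is not given in the sources used here. The time between transfection and harvest is not given in them either.

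Enzymes of the B4GALT family sit in the membrane of the Golgi apparatus and transfer galactose from UDP-galactose to an acceptor sugar. B4GALT1 adds galactose to N-acetylglucosamine on glycoproteins, which makes N-acetyllactosamine, and with alpha-lactalbumin it makes lactose in the mammary gland. B4GALT2, B4GALT3 and B4GALT4 also make N-acetyllactosamine, B4GALT5 and B4GALT6 make lactosylceramide, the precursor of most glycosphingolipids, and B4GALT7 adds the first galactose of the linker that joins glycosaminoglycan chains to proteoglycans. The galactose ends that they leave can be extended, capped with sialic acid or fucose, or bound by galectins.

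Values are quantile-normalized read counts (normalized counts below), so each library sums to 8.525 M. Depth before that step, estimated from the order of tied low counts, was 6.79 to 10.8 M reads per library. ELOVL2 stood at 9.32% of its control mean in siELOVL2 cells and at 8.87% in double cells. ELOVL5 stood at 7.48% in siELOVL5 cells and at 9.03% in double cells. Of 10 kidney carcinoma markers all 10 had a mean of at least 1 normalized count, with PAX8 at 603 and CA9 at 15.3 in control cells. They summed to 36310 to 36773 in control, 30130 to 31274 in siELOVL2, 30438 to 34697 in siELOVL5 and 27905 to 32677 in double libraries. From control to siELOVL2 cells the mean of VIM went from 21271 to 15105 and that of CDH6 from 2529.5 to 1148. The mean of KRT8 went from 6169 to 7522 and that of KRT18 from 2348 to 2818. The summed levels of 7 fibroblast and pericyte markers were 475 to 537 in control, 363 to 459 in siELOVL2, 490 to 539 in siELOVL5 and 383 to 425 in double libraries, and their part in the results below was not tested. The 6 leukocyte markers summed to 295 to 455 and the 4 matched endothelial markers to 2.17 to 30 over all libraries. Markers within these lists differed: in control cells CD68 had a mean of 330 and PTPRC 0.333 (leukocytes), COL1A1 396, RGS5 91.3 and COL1A2 0 (fibroblasts and pericytes), and TEK 8.25 and CDH5 0 (endothelium). The replicate that lay farthest from its group mean over all tested genes was siELOVL5 replicate 3, with a root mean square deviation of 0.455 on the log2 scale against 0.342 to 0.416 in the other 11 libraries.

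The stretches just upstream of the annotated starts of B4GALT1 and B4GALT2 are shown because these are the members with the lowest levels, relative to control, in cells given the ELOVL2 siRNA. They come from RefSeq (GRCh38.p14) and are cut where GENCODE 29 places an exon of the gene. The B4GALT1 stretch is chr9:33167357-33167586 on the minus strand and the B4GALT2 stretch is chr1:43979687-43979876 on the plus strand. Both are written 5′ to 3′ in the direction of the gene, and capitals mark the GC box, GGGCGG or its reverse complement CCGCCC.
B4GALT1: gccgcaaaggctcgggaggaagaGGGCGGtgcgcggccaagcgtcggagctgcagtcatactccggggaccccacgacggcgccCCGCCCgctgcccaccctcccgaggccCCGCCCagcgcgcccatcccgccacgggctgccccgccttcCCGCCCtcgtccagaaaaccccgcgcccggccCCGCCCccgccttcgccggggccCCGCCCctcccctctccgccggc
B4GALT2: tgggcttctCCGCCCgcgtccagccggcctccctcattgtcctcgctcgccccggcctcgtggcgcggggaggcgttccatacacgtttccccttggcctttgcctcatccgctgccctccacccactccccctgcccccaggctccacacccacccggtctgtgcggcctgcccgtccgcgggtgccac
The GC box, a motif known to be bound by SP1-family factors, occurs 6 times in the B4GALT1 stretch and 1 time in the B4GALT2 stretch. In the full windows of 250 bases upstream of the first listed start, both strands counted, the numbers were 7 for B4GALT1, 2 for B4GALT2, 0 for B4GALT3, 3 for B4GALT4, 3 for B4GALT5 and 5 for B4GALT7. Of 27305 genes in the same table, 42.3% hold at least 1 GC box in a window of this length and 14.0% hold at least 3. The matches are a description of the letters in these windows. B4GALT6 was not matched.

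B4GALT1 was the member with the lowest level, relative to control, wherever the ELOVL2 siRNA was present. Its normalized counts were 4251, 4275 and 4078 in control replicates 1, 2 and 3, and 1604, 1625 and 1757 in siELOVL2 replicates. They were 4626, 4788 and 5110 in siELOVL5 replicates and 1676, 1629 and 2036 in double replicates. All 6 libraries that received the ELOVL2 siRNA lay below all 6 that did not, and the siELOVL2 and double libraries overlapped. Of all tested genes 10.4% had their 3 siELOVL2 libraries below the 3 controls, and 7.43% had their 3 double libraries below the 3 siELOVL5 libraries. The share with all 6 below all 6 was not counted, and it can be no larger than either of these. In bulk RNA, fewer cells with a transcript and less of it per cell cannot be told apart.

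The comparison of double with siELOVL5 cells asks what the ELOVL2 siRNA does where ELOVL5 is already lowered, and its group means use no library of the comparison that chose the family. Its SE, interval and p pool the spread within all 4 groups, those libraries included. The double cells received the ELOVL2 siRNA too, and the family was chosen with earlier results of these data known. The p of B4GALT1 is therefore no independent support for that choice. From siELOVL5 to double cells B4GALT1 fell from 4842 ± 246 normalized counts (SD, n = 3) to 1780 ± 223. The log2 difference was -1.45 (SE 0.086, 95% interval -1.64 to -1.26, limma adjusted p = 3.92e-06), which leaves 0.366 of the siELOVL5 level. Over all genes 2.77% were called, meaning an adjusted p under 0.05, and 1.41% were called lower. B4GALT1 had the second smallest p of the 18648 genes, and by log2 difference it was 26th among the 263 genes called lower. B4GALT1 was called with each of the 12 libraries left out in turn, at a limma adjusted p of up to 8.82e-05. With the 6 libraries compared fitted alone, the limma adjusted p was 0.00402. These fits also measure a fall with the ELOVL2 siRNA, the result that chose the family, and are no independent support either.

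The comparison that chose the family gave 4202 ± 107 in control cells (SD, n = 3) and 1662 ± 83.2 in siELOVL2 cells, a log2 difference of -1.34. Double cells differed from control cells by -1.25. With the siELOVL5 siRNA alone B4GALT1 stood 0.20 above control on the log2 scale, with all 3 libraries above the 3 control libraries, as in 6.07% of tested genes. Double cells stood 0.093 above siELOVL2 cells. These 4 differences share libraries with the choice of the family and were not tested.

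GENCODE 29 places the antisense gene B4GALT1-AS1 across the B4GALT1 start on the other strand, and its values were not analysed here. No source used here gives the strand setting of the counting. Whether reads from any stretch shared by a gene and its antisense partner were kept apart is therefore not known. The same holds for B4GALT3, which overlaps PPOX on the other strand (mean 83.6 normalized counts over the 12 libraries), and for B4GALT6, which overlaps AC017100.1. B4GALT4-AS1, which overlaps B4GALT4, was at 0 in every library.

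**Figure D1:**
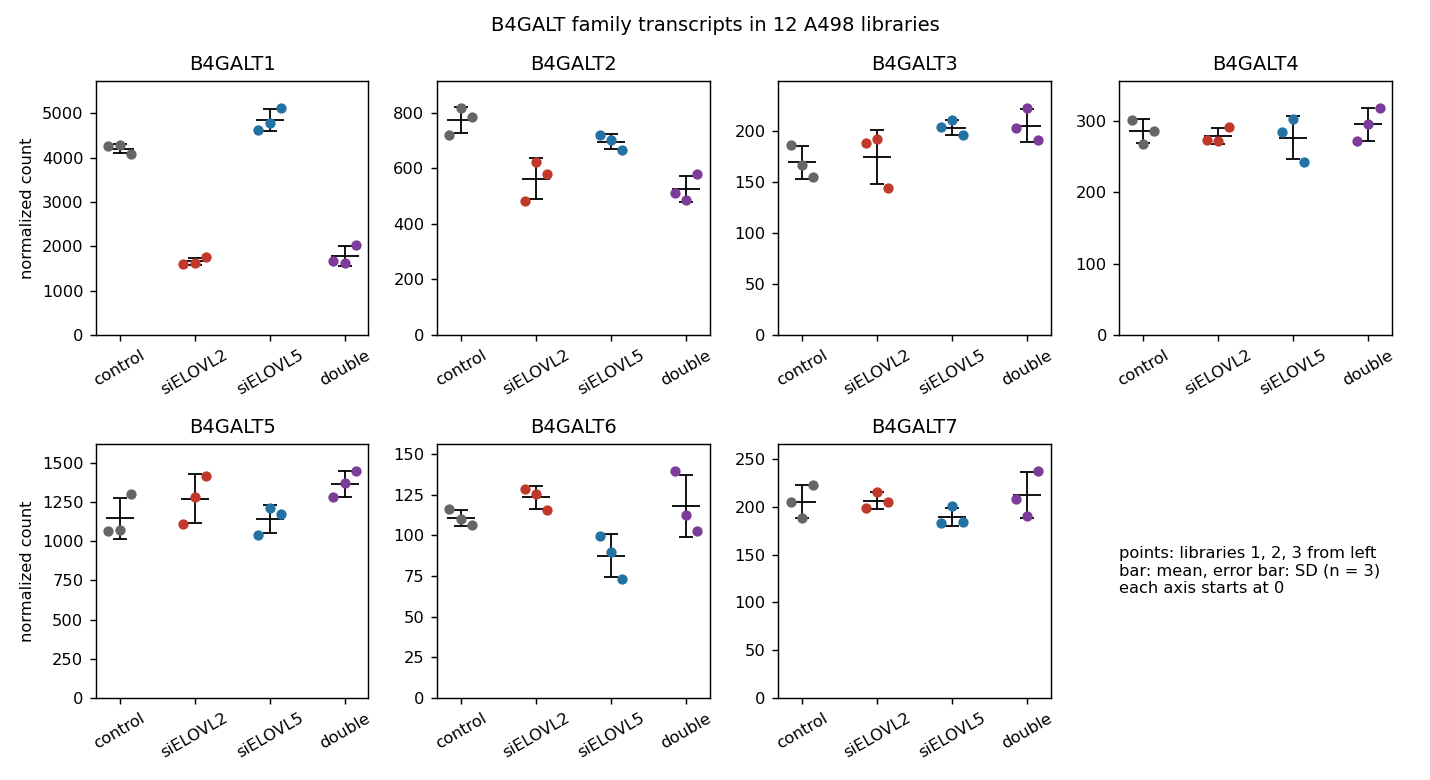
Normalized counts of the 7 members (vertical axes, each from 0) in control, siELOVL2, siELOVL5 and double libraries. Points are libraries, bars are means and error bars are SD (n = 3). B4GALT1 lies between 1604 and 2036 in the 6 libraries with the ELOVL2 siRNA and between 4078 and 5110 in the other 6.

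B4GALT2, which shares the N-acetyllactosamine reaction, was the other member with lower levels wherever the ELOVL2 siRNA was present. Its normalized counts were 721, 816 and 783 in control, 481, 624 and 580 in siELOVL2, 718, 703 and 667 in siELOVL5 and 512, 487 and 578 in double replicates 1, 2 and 3. The ranges of the double and siELOVL5 libraries did not overlap, and 7.43% of tested genes had all 3 double libraries below all 3 siELOVL5 libraries. The log2 difference between double and siELOVL5 cells was -0.41 (SE 0.10, 95% interval -0.63 to -0.19), and its limma adjusted p of 0.0530 missed the threshold. Over the 22 alternative fits that p ranged from 0.00922 to 0.178, and 8 of them lay under the threshold. The fit with replicate number added was among them. So were the fits without double replicate 3 (0.0499), siELOVL2 replicate 1 (0.0317) or siELOVL5 replicate 3 (0.0448), and those with TMM scaling (0.0400) or median-of-ratios scaling (0.0378). Against control the untested log2 difference was -0.47 in siELOVL2 cells and -0.56 in double cells. All 3 siELOVL5 libraries lay below the 3 controls too, as in 7.04% of tested genes. There the log2 difference was -0.15 (95% interval -0.37 to 0.071, limma adjusted p = 0.668).

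B4GALT3 and B4GALT4, also N-acetyllactosamine synthases, showed no call. B4GALT3 was at 187, 167 and 155 normalized counts in control, 189, 192 and 145 in siELOVL2, 205, 211 and 196 in siELOVL5 and 203, 223 and 191 in double replicates. All 3 siELOVL5 libraries lay above the 3 controls, as in 6.07% of tested genes. The log2 difference of 0.27 (95% interval -0.0037 to 0.54) had a limma adjusted p of 0.528. Between double and siELOVL5 cells it was 0.011 (95% interval -0.26 to 0.28), and this value changed sign with TMM scaling (-0.019) and with median-of-ratios scaling (-0.020). B4GALT4 ranged from 243 to 317 over the 12 libraries and its groups overlapped throughout. Its log2 difference between double and siELOVL5 cells was 0.097 (95% interval -0.12 to 0.32, limma adjusted p = 0.690).

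The lactosylceramide synthases B4GALT5 and B4GALT6 lay higher in double than in siELOVL5 cells without passing the main test. B4GALT5 was at 1068, 1070 and 1300 normalized counts in control, 1108, 1285 and 1419 in siELOVL2, 1040, 1214 and 1176 in siELOVL5 and 1281, 1373 and 1449 in double replicates. The log2 difference between double and siELOVL5 cells was 0.26 (95% interval 0.028 to 0.49, limma adjusted p = 0.226). B4GALT6 was at 116, 110 and 107 in control, 129, 126 and 116 in siELOVL2, 99.6, 89.6 and 73.3 in siELOVL5 and 140, 113 and 103 in double replicates. For B4GALT6 the same difference was 0.43 (95% interval 0.11 to 0.75, limma adjusted p = 0.145). With replicate number added to the fit, the limma adjusted p was 0.0426 for B4GALT5 and 0.0475 for B4GALT6. In both genes all 3 double libraries lay above all 3 siELOVL5 libraries, as in 11.4% of tested genes. B4GALT6 also lay below control in all 3 siELOVL5 libraries, as did 7.04% of tested genes, with a log2 difference of -0.35 (95% interval -0.67 to -0.028, limma adjusted p = 0.493).

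B4GALT7, which builds the glycosaminoglycan linker, ranged from 183 to 238 normalized counts over the 12 libraries, and its groups overlapped. Its log2 difference between double and siELOVL5 cells was 0.16 (95% interval -0.072 to 0.39, limma adjusted p = 0.487).

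Of the 7 members 1 was called between double and siELOVL5 cells (14.3%, against 2.77% of all tested genes). That member was B4GALT1, whose lower values chose the family, so the share is not a result about the family. B4GALT2 to B4GALT7 were not called there in the main fit. With replicate number added to the fit, limma called 4 of the 7 members, B4GALT1 included, and 1368 of all genes. In the main fit an unadjusted p under 0.05 was reached by 4 members, B4GALT1 included, and by 3242 of the 18648 tested genes. The median log2 difference of the members was 0.097, against 0.021 over all tested genes. In the other comparisons B4GALT2 to B4GALT7 were tested. Limma called 0 of these 6 between siELOVL5 and control cells, where 0.139% of all genes were called. There 1 of the 6 had an unadjusted p under 0.05, as had 1783 of the 18648 tested genes. Limma called 0 of the 6 between double and siELOVL2 cells, where 0.059% of all genes were called. There 0 of the 6 and 672 of all tested genes had an unadjusted p under 0.05. The interaction, which asks whether the ELOVL2 siRNA acts differently with and without the ELOVL5 siRNA, was called for 0 of the 6 (0 with an unadjusted p under 0.05) and for 0 of all genes (522 with an unadjusted p under 0.05). For B4GALT2 the interaction was 0.060 on the log2 scale (95% interval -0.25 to 0.37), and it changed sign in 3 of its 21 alternative fits.

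**Figure D2:**
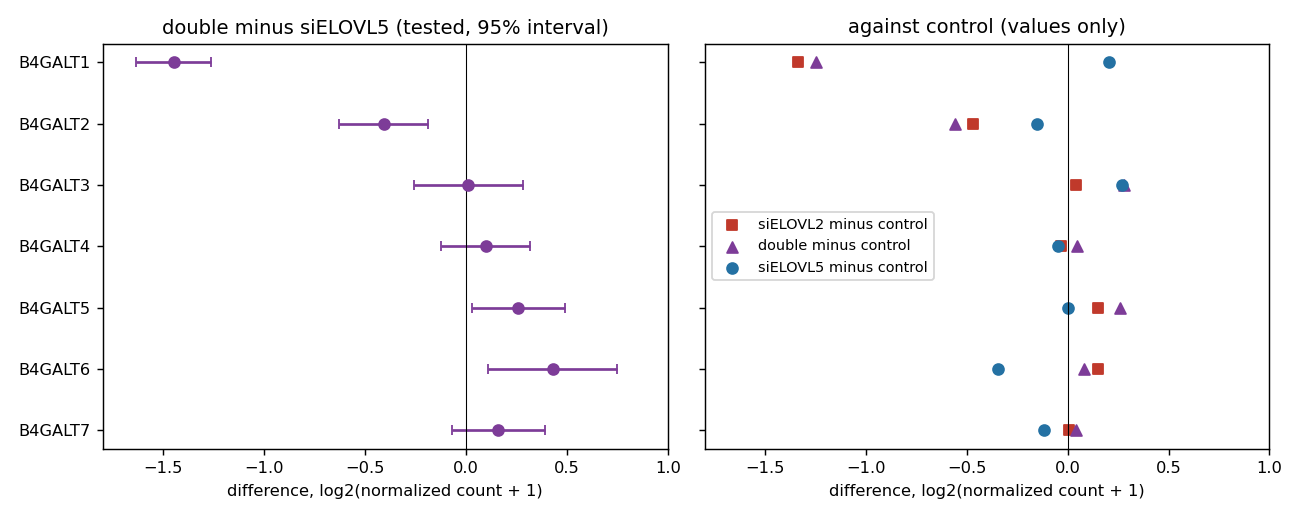
Differences in log2(normalized count + 1), horizontal axes, for the 7 members. Left, double minus siELOVL5 with 95% intervals from limma, where B4GALT1 lies at -1.45 and B4GALT2 at -0.41. Right, untested values for the 3 siRNA groups against control, where B4GALT1 lies at -1.34 (siELOVL2), -1.25 (double) and 0.20 (siELOVL5).

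Levels of different genes were compared per kilobase of exon, with lengths from GENCODE 29 (from 1747 bases for B4GALT7 to 6389 for B4GALT4). In control cells B4GALT1 stood highest at 857 ± 21.9 normalized counts per kilobase (SD, n = 3). B4GALT2 (263 ± 16.3) and B4GALT5 (243 ± 28.3) followed, with ranges that overlapped. Then came B4GALT7 (118 ± 9.66), B4GALT3 (70.2 ± 6.66), B4GALT4 (44.6 ± 2.61) and B4GALT6 (28.5 ± 1.28), each separated from the next over the 3 control libraries. The order rests on the exon lengths, and the annotation that the authors counted on is not given in the sources used here.

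B4GALT1 supplied 52.8% of the family's summed level per kilobase in control cells (50.8 to 53.8%) and 57.3% in siELOVL5 cells (56.0 to 59.2%). It supplied 31.9% in siELOVL2 cells (30.3 to 33.0%) and 32.5% in double cells (31.2 to 34.3%). The summed level was 1624 ± 13.2 normalized counts per kilobase in control (SD, n = 3), 1065 ± 63.0 in siELOVL2, 1725 ± 50.5 in siELOVL5 and 1115 ± 82.7 in double cells. In siELOVL2 cells B4GALT1 remained the highest member at 339 (327 to 359) per kilobase, and B4GALT5 (269, range 235 to 301) then stood above B4GALT2 (191, range 163 to 212). The share of B4GALT5 was 14.9% in control and 25.2% in siELOVL2 cells, with level means of 243 and 269 per kilobase. The values of siELOVL2 and control cells are a description, since that comparison chose the family.

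**Figure D3:**
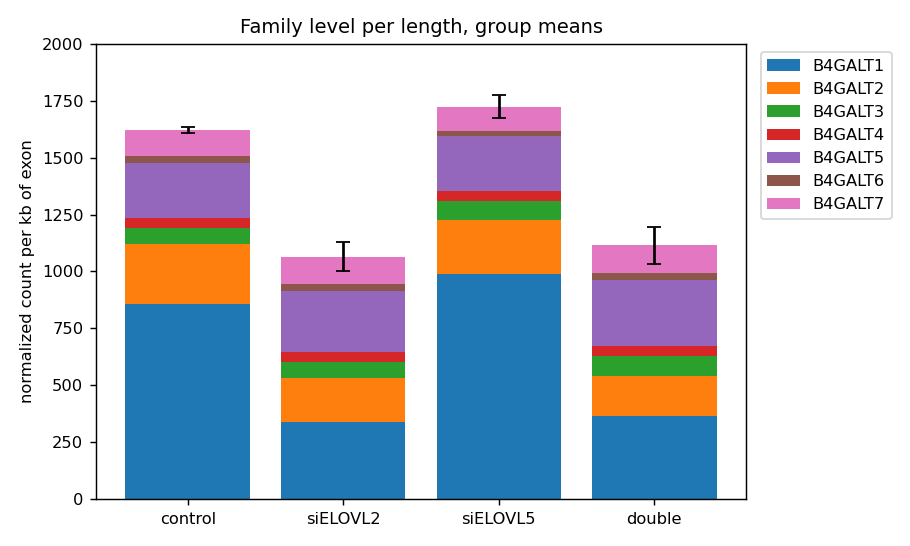
Group means of the 7 members in normalized counts per kilobase of exon (vertical axis, from 0), stacked for each siRNA group. The error bar is the SD of the summed level over 3 libraries, and the sums are 1624 in control, 1065 in siELOVL2, 1725 in siELOVL5 and 1115 in double cells.

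The genes with the profile most like that of B4GALT1 were sought among 9317 genes outside the family with a mean level no lower than the median tested gene. Likeness was the root mean square difference over the 12 libraries in log2(normalized count + 1), after each gene was centred on its own mean. The nearest were TMEM127 (0.104), which encodes a transmembrane protein, DUSP3 (0.126), a protein phosphatase, and MOB1A (0.173), an adaptor of the Hippo pathway. CCNG1 (0.174), which encodes cyclin G1, HIATL1 (0.197), which encodes a predicted transporter, and TAF10 (0.203), a subunit of the transcription factor TFIID, came next. The median over the 9317 genes was 0.737, and B4GALT2 lay at 0.509 from B4GALT1. These libraries are shared by all genes compared, and no test was made of likeness.

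TMEM127 was at 1374, 1515 and 1586 normalized counts in siELOVL5 and at 583, 561 and 683 in double replicates. Its log2 difference was -1.29. DUSP3 differed by -1.68 between the same groups, MOB1A by -1.46, CCNG1 by -1.53, HIATL1 by -1.12 and TAF10 by -1.15. The choice by likeness fixes that these genes lie lower in double cells, so the values describe how near they are to the -1.45 of B4GALT1.

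**Figure D4:**
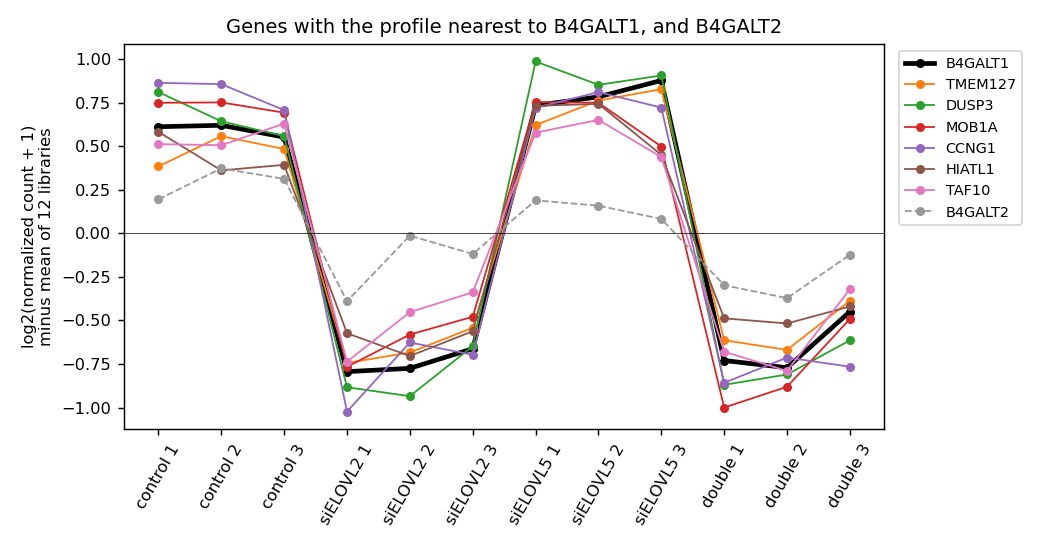
Profiles of B4GALT1 (thick black), its 6 nearest genes and B4GALT2 (dashed grey) over the 12 libraries (horizontal axis), as log2(normalized count + 1) minus each gene's mean. The 6 libraries with the ELOVL2 siRNA lie below 0 and the other 6 above 0 in all 8 genes, with a smaller span in B4GALT2.

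Other genes of galactose metabolism were taken from 9 lists with 110 different genes, of which 109 were matched and 98 tested. Between double and siELOVL5 cells 5 were called higher and 3 lower (8.16%, against 2.77% of all genes). An unadjusted p under 0.05 was reached by 34 of the 98, and by 3242 of all 18648 tested genes. The median was 0.042 on the log2 scale, against 0.021 over all tested genes. In a fit on these 6 libraries alone limma called 0 of them, and without double replicate 1 also 0, without double replicate 2 only 1. Without any other single library 4 to 8 were called, and the counts of 4 or 5 came without control replicate 1 (5), 2 (4) or 3 (5), double replicate 3 (4), siELOVL2 replicate 2 (4) or siELOVL5 replicate 1 (4). The lists and their members were chosen with earlier results of these data known.

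Supply of the donor sugar showed no call. Of 10 tested genes in the list for UDP-galactose supply and Golgi import, limma called 0, with a median of 0.16. An unadjusted p under 0.05 was reached by 4 of the 10, beside the 3242 of all 18648 tested genes. SLC35A2, the UDP-galactose transporter, was at 231, 211 and 242 normalized counts in siELOVL5 and 267, 277 and 287 in double replicates. All 3 double libraries lay above, as in 11.4% of tested genes. The difference of 0.28 had a limma adjusted p of 0.0957, and of 0.0475 without siELOVL5 replicate 3.

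Among enzymes that build the acceptors on N-glycans 2 of 11 were called (18.2%, against 2.77% of all genes), both higher. The list median was 0.19. MGAT4B, a branching N-acetylglucosaminyltransferase, rose from 2510 ± 309 to 3350 ± 104 normalized counts (SD, n = 3; log2 difference 0.42, limma adjusted p = 0.0244). It lost the call without double replicate 1 (0.0890), 2 (0.0774) or 3 (0.0531). MAN2A2, an alpha-mannosidase of the Golgi, rose by 0.47 (limma adjusted p = 0.0468), and 10 of the 12 fits without 1 library ended that call, with adjusted p from 0.0593 to 0.137. It held without siELOVL2 replicate 1 or siELOVL5 replicate 3. MGAT5, which makes the branch most often extended with poly-N-acetyllactosamine, differed by 0.19 (limma adjusted p = 0.185).

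Of the lists for steps after galactose transfer, only the capping list held a called gene. Of 11 genes for poly-N-acetyllactosamine limma called 0 (3 with an unadjusted p under 0.05, median 0.13), and B3GNT2, which extends these chains, differed by -0.29 (adjusted p = 0.213). Of 15 tested genes in the capping list 1 was called (6.67%, against 2.77% of all genes), and the list median was -0.40. The called gene was CHST2, a sulfotransferase that acts on N-acetylglucosamine and not on galactose. It fell from 236 ± 34.4 to 158 ± 29.1 normalized counts (SD, n = 3). The log2 difference was -0.58 (limma adjusted p = 0.0443). In fits without 1 library it kept the call only without double replicate 3 or siELOVL5 replicate 1. The adjusted p was 0.0587 to 0.159 without each of the other 10 libraries. ST6GAL1, which adds sialic acid to galactose, was at 98.1, 95.9 and 131 in siELOVL5 and at 74.3, 80.6 and 81.4 in double replicates (-0.44, adjusted p = 0.144). Of 9 galectins limma called 0 (1 with an unadjusted p under 0.05, median 0.016). LGALS1 differed by -0.053 and LGALS3 by -0.12.

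On the glycosphingolipid side limma called 0 of 10 genes (3 with an unadjusted p under 0.05, median 0.024). UGCG, which makes the glucosylceramide that B4GALT5 and B4GALT6 extend, differed by -0.29 (limma adjusted p = 0.460), and its siELOVL5 libraries were at 938, 905 and 1679 normalized counts. Without siELOVL5 replicate 3 the difference was -0.0042, and without each other library it lay between -0.45 and -0.23. ST3GAL5, which converts lactosylceramide to the ganglioside GM3, was at 127, 82.5 and 51.0 in siELOVL5 and at 248, 209 and 101 in double replicates. Its groups overlapped, and the log2 difference of 1.09 had a limma adjusted p of 0.145. Taken by replicate number, each double library lay above its siELOVL5 counterpart. With replicate number added to the fit, the limma adjusted p was 0.00135.

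The glycosaminoglycan list, in which B4GALT7 acts, had calls in both directions, 1 of 16 higher and 2 lower. That was 18.8%, against 2.77% of all genes, and the list median was 0.082. EXT2, a heparan sulfate polymerase subunit, rose from 1685 ± 189 to 2308 ± 19.1 normalized counts (SD, n = 3; 0.46, limma adjusted p = 0.0132) and lost the call without double replicate 1 (0.0530) or 2 (0.0586). CSGALNACT1, which starts chondroitin sulfate chains, fell from 248 ± 21.2 to 152 ± 27.1 (-0.71, adjusted p = 0.0229), lost without double replicate 1 (0.0805) or 2 (0.0998) or siELOVL5 replicate 1 (0.0657) or 2 (0.0646). Its paralog CSGALNACT2 fell by 0.76 on the log2 scale (adjusted p = 0.0353), lost without control replicate 2, any double library, siELOVL2 replicate 2 or siELOVL5 replicate 1 or 3 (0.0566 to 0.109). The other linker enzymes were not called. XYLT2, which adds the xylose that B4GALT7 extends, differed by 0.39 (limma adjusted p = 0.0913). That p was 0.0414 without siELOVL5 replicate 2 and 0.0282 with replicate number added to the fit. B3GALT6, which adds the next galactose, differed by 0.0061, with a change of sign to -0.024 under TMM scaling and -0.025 under median-of-ratios scaling. B3GAT3, which adds the glucuronic acid, differed by 0.26 (limma adjusted p = 0.177).

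Among the remaining lists, COLGALT1, which adds galactose to collagen, was called higher (log2 difference 0.31, limma adjusted p = 0.0364). It was the 1 called of 11 tested genes in the list of other galactosyltransferases (9.09%, against 2.77% of all genes). That call ended without any control or double library, without siELOVL2 replicate 2 and without siELOVL5 replicate 1 or 2 (0.0520 to 0.116). In the list of galactose removal and lysosomal galactosidases 1 of 6 tested genes was called (16.7%, against 2.77% of all genes), and it was higher. This was GM2A, a lysosomal activator protein for ganglioside breakdown and not itself a galactosidase. It rose from 382 ± 56.6 to 560 ± 25.1 normalized counts (SD, n = 3). The log2 difference was 0.56 (limma adjusted p = 0.0113, and 0.0504 without double replicate 1).

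In siELOVL2 against control cells 2 of the 98 pathway genes were called (2.04%, against 1.36% of all genes), MGAT4B higher by 0.41 (limma adjusted p = 0.0402) and CSGALNACT1 lower, at -0.80 (adjusted p = 0.0195). MGAT4B was not called without any control or siELOVL2 library or without double replicate 1 or 2 (0.0579 to 0.179), nor CSGALNACT1 without any control library or siELOVL2 replicate 1 or 2 (0.0612 to 0.0974). Limma called 0 of 98 between siELOVL5 and control cells, where 5 had an unadjusted p under 0.05, as had 1783 of all 18648 genes. Between double and siELOVL2 cells limma called 0 of 98, where 4 had an unadjusted p under 0.05, as had 672 of all genes. In the 8 pathway genes called between double and siELOVL5 cells the size of the difference ran from 0.31 to 0.76 on the log2 scale, and that of B4GALT1 was 1.45.

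**Figure D5:**
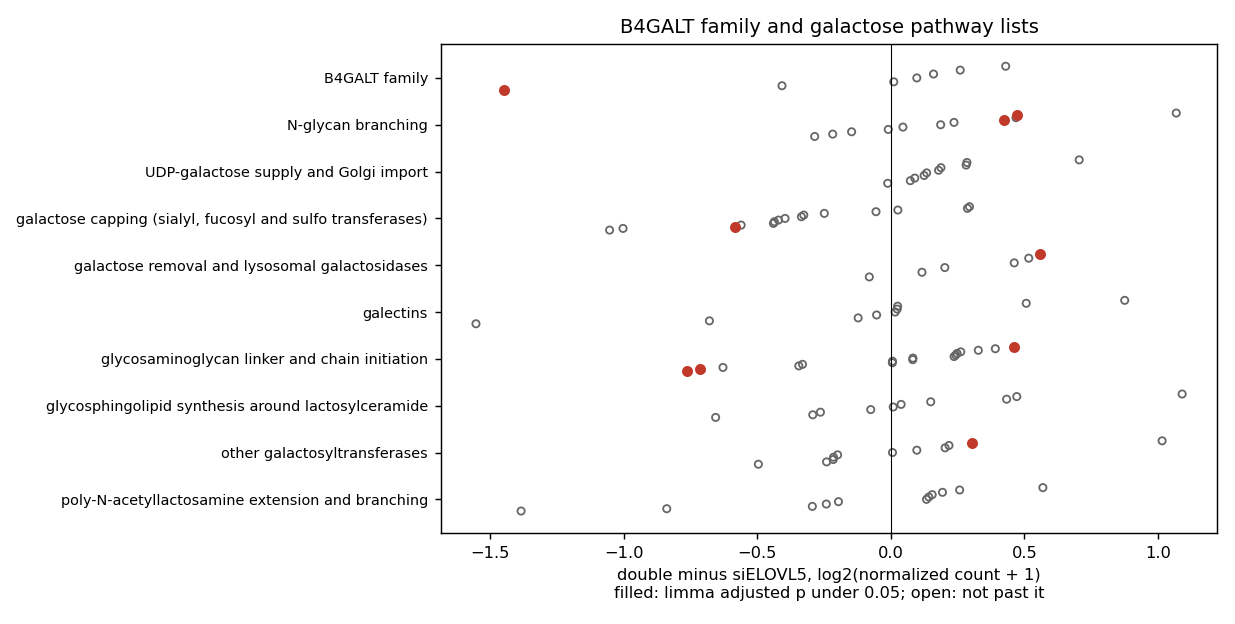
Double minus siELOVL5 in log2(normalized count + 1), horizontal axis, for the B4GALT family and the 9 lists; each circle is 1 tested gene. Filled circles passed an adjusted p of 0.05 in limma, and B4GALT1 at -1.45 is the lowest of the filled circles.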

How the data were processed

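RNA of 12 A498 libraries was read from both ends on an Illumina sequencer, per the labels' protocols. The authors deposited 1 normalized signal value per gene and library. All columns hold the same set of values in steps of 1 over 12, the pattern left by quantile normalization across 12 count columns, so totals cannot differ. For aligner, counting tool, annotation and build: not given in the sources used here.

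The log2(value + 1) of each gene entered limma 3.58.1 (R 4.3.3). A gene was tested if 3 or more libraries reached a value of 1, which left 18648. The 4 groups were fitted together as group means (8 residual degrees of freedom) with an intensity trend, and p-values were adjusted by Benjamini-Hochberg over all tested genes, with a threshold of 0.05. The fit was tested on simulated data. Depth was estimated from breaks in table order among genes tied at low counts (20 to 60 reads). Nothing states whether replicates were separate cultures beyond the label of biological replicate, so p-values measure the spread between these samples.

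The members, lists and words were chosen with earlier results of these data known. The naming rule took all members, 12 set pathway genes (1 of them is not reported here), up to 3 called genes per list and direction, and the 6 genes nearest to B4GALT1. The genes ELOVL2 and ELOVL5 served as the check of the labels. Of 110 pathway genes 106 matched by name and 3 by a RefSeq synonym, and 1 is not analysed here.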

Additional observations from a re-analysis of the deposited data

How the results depend on the processing

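In 22 alternative fits B4GALT1 stayed called between double and siELOVL5 cells, at log2 differences of -1.55 to -1.39 without 1 library and at limma adjusted p from 1.37e-07 to 0.00402 over all 22. The number of members called there was 1, and 1 to 2 without 1 library. It was 2 with a filter of at least 10 in 3 libraries, with library weights, with TMM scaling and with median-of-ratios scaling (B4GALT2 joined), and 4 with the replicate block. The labels do not say that a replicate number marks a shared batch. Of 18 same-numbered pairs 9 had a correlation of deviations over 0.1 (from -0.001 to 0.212). Libraries correlated best with their own number in 31 of 36 comparisons, each with 3 libraries to choose from. Libraries of the same number thus shared structure, seen in the data and not stated by the design. The main fits leave this structure out. With the replicate block B4GALT2 (0.0228), B4GALT5 (0.0426), B4GALT6 (0.0475), ST3GAL5 (0.00135) and XYLT2 (0.0282) passed between double and siELOVL5 cells, and B4GALT1 had an adjusted p of 9.12e-07.

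Pathway genes called between double and siELOVL5 cells were 8, against 16 with library weights, 16 with the replicate block, 5 with no filter, 1 without the intensity trend and 0 with only the groups compared, and 0 to 8 without 1 library. Between siELOVL2 and control cells they were 2, against 18, 8, 1, 0 and 7 under the same settings in that order, and 0 to 5 without 1 library. Between siELOVL5 and control cells library weights called 1. All genes called between double and siELOVL5 cells were 516, against 1251 with library weights, 1368 with the replicate block, 200 without the trend and 45 with only these groups, and 156 to 789 without 1 library. Between siELOVL2 and control cells 254 became 1569, 861, 101 and 572, and 63 to 829 without 1 library. Between siELOVL5 and control cells 26 became 145 with weights, 99 with the block and 8 with only these groups, and 9 to 41 without 1 library. Between double and siELOVL2 cells 11 became 27 with weights, 21 without the trend and 1 with only these groups, and 2 to 16 without 1 library. Without the trend 9 genes showed an interaction. The causes were not tested.

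Small differences that changed sign were never called. Library weights gave -0.056 for B4GALT2 in the interaction, 0.055 for B4GALT4 and 0.031 for B4GALT5 in siELOVL5 against control, and -0.057 for B4GALT7 in double against siELOVL2. TMM and median-of-ratios scaling gave -0.019 and -0.020 for B4GALT3 and -0.024 and -0.025 for B3GALT6 in double against siELOVL5, and 0.013 and 0.012 for B4GALT5 in siELOVL5 against control. Without 1 library the ranges were -0.048 to 0.14 (B4GALT2) and -0.16 to 0.044 (B4GALT3) in the interaction. In double against siELOVL5 they were -0.048 to 0.062 for B4GALT3, -0.12 to 0.11 for B3GALT6, -0.19 to 0.036 for LGALS1 and -0.35 to 0.054 for LGALS3. In siELOVL5 against control they were -0.12 to 0.040 for B4GALT4 and -0.048 to 0.094 for B4GALT5. In double against siELOVL2 they were -0.19 to 0.025 for B4GALT6 and -0.050 to 0.11 for B4GALT7.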

Other observations

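An earlier scan of these data had marked 3 related 7-base words in transcripts that fell with the ELOVL2 siRNA. The first word is ACGAATA, the second is CACGATA and the third, which overlaps the second, is ACGATAA. They were looked for, in the sense direction, in the 31 protein-coding GENCODE 29 transcripts of the B4GALT family, coding and untranslated parts included. They occur in 0 of the 7 members, B4GALT1 and B4GALT2 included, and at least 1 of them occurs in 8.82% of 19669 protein-coding genes. Of the 6 genes with the profile nearest to B4GALT1, 5 hold at least 1 of them. TMEM127 and MOB1A hold the first word, and DUSP3, CCNG1 and HIATL1 (MFSD14B in GENCODE 29) hold the second and the third word. TAF10 holds none. The words came from these same libraries, so the count for the nearest genes is not independent of how they were found. The word GAGAGGA, marked by the same scan for the ELOVL5 siRNA, occurs in 3 members (B4GALT1, B4GALT2 and B4GALT5) and in 39.8% of protein-coding genes. Between siELOVL5 and control cells B4GALT1 lay 0.20 above control on the log2 scale, B4GALT2 differed by -0.15 (limma adjusted p = 0.668) and B4GALT5 by -0.00046 (adjusted p = 1, with a change of sign to 0.013 under TMM and 0.012 under median-of-ratios scaling). What these letters have to do with the transcript levels was not tested.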
